A study of Mus musculus with 6 samples.

Results

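Collagens, other matrix proteins and the proteins that fold, cross-link and degrade them were followed in mouse liver as a fixed group of 42 genes, listed by name from their known roles in the extracellular matrix. On the arrays used, 40 of the 42 had a probe set assigned to a single gene, and 37 of these 40 gave a signal above the floor on at least 1 array, out of 13988 such genes among 18193 in all. Lamb1, Mfap4 and Mmp13 lay below the floor on every array, and Fbn1 and Loxl2 were not analysed here. Of the 37 measured genes, 6 encode the fibrillar collagens and the fibril-associated Col14a1, 6 the basement membrane and its collagens, 3 collagen VI, 5 fibronectin, elastin and leucine-rich proteoglycans, 8 matricellular proteins and TGF-beta, 4 collagen folding and cross-linking proteins, and 5 matrix metalloproteinases and their inhibitors.

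Liver RNA came from male mice of the inbred strain C57BL6/J, 6 to 8 weeks old at the start, and each array held RNA pooled from 3 to 4 livers. At 2 months the groups were fast-food diet with canertinib mixed into the food throughout at about 80 mg/kg per day, fast-food diet alone, and chow. At 5 months they were fast-food diet with canertinib injected at 80 mg/kg on 5 days a week during the last 5 weeks, fast-food diet with vehicle injections, and chow, for which the labels name no injection. Canertinib irreversibly blocks the kinases of the ERBB receptor family, including EGFR, and the fast-food diet combines fat, cholesterol and sucrose in the food (21% fat, 34% sucrose and 0.2% cholesterol by weight) with glucose and fructose in the drinking water. Route, duration of dosing and study length differ together between the 2 studies. Pooling hides the spread between mice, and 1 array per group gives differences within a study no replicate check, so these are given as sizes without a test.

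The liver's matrix is normally sparse: fibrillar collagens I, III and V surround the portal tracts and central veins, and a thin layer of basement membrane proteins, fibronectin and collagen VI lies along the sinusoids. Hepatic stellate cells and portal fibroblasts are the main source of fibrillar collagen in injured liver, where they are activated by TGF-beta and lay down scar. Collagen chains need chaperones and hydroxylases in the endoplasmic reticulum and lysyl oxidases outside the cell, and their turnover is set by matrix metalloproteinases and the tissue inhibitors of metalloproteinases (TIMPs).

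Values are MAS5 signals from Affymetrix microarrays, a linear fluorescence scale on which the authors had brought every array to a trimmed mean of 500. Signals below 221.4, the 50th percentile of all values, were raised to that floor before log2 changes were taken, so a change against a floored array is a bound. Each gene is given by its brightest probe set. Between 84.3% and 86.6% of measured genes lay above the floor on an array. The log2 difference between the 3' and the 5' actin control probe sets, a sign of RNA quality, was 1.19 at 2 months and 1.12 at 5 months with canertinib, 0.85 and 0.98 on fast food alone, and 0.94 and 0.85 on chow. The same difference for the Gapdh control was -0.20 and -0.14 with canertinib, -0.30 and -0.22 on fast food, and -0.18 and -0.09 on chow. By Gapdh the canertinib arrays thus lay between the other groups in each study. The part of RNA quality in the results was not tested.

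In whole liver, fewer cells of a type and less RNA per cell cannot be told apart, so markers of matrix-producing and other cells were summed on each array. The 14 stellate cell markers, all above the floor on at least 1 array, summed to 13267 to 15952 signal units on the canertinib arrays, 15125 to 16969 on the fast-food arrays and 9518 to 10290 on the chow arrays, with Colec11, Rgs5 and Reln brightest. Their log2 median was 0.32 (2 months) and 0.54 (5 months) for fast food against chow, and -0.03 and -0.33 for canertinib against fast food. The 6 measured of 8 portal fibroblast markers (Gpx8 and Msln lay below the floor) summed to 6749 to 7474 with canertinib, 4452 to 6540 on fast food and 3206 to 3777 on chow. Gas6 was brightest, with 2780 on fast food and 1403 on chow at 2 months, and 4181 and 1655 at 5 months. For fast food against chow the log2 median of this list was -0.03 at 2 months (3 higher, 3 lower) and 0.19 at 5 months (3 higher, 2 lower). Macrophage markers, 10 of 11 measured with Itgam below the floor, showed the widest gap to chow, at 42474 to 48547 with canertinib, 35321 to 44088 on fast food and 14524 to 14812 on chow. Stellate, portal fibroblast and macrophage marker sums thus lay above chow in both groups fed the diet, the portal fibroblast sum largely through Gas6. With canertinib the stellate excess over chow lay largely in Rgs5. It had 4562 against 1044 on chow at 2 months, and 3514 against 1059 at 5 months. The log2 median of the stellate list for canertinib against chow was 0.16 and 0.05. The stellate sum with canertinib was above fast food at 2 months (15952 and 15125) and below it at 5 months (13267 and 16969). The 12 endothelial markers summed to 13718 to 16349, 15571 to 17401 and 12913 to 14457 in the groups with canertinib, fast food and chow. Cholangiocyte markers, 5 measured with Krt7 below the floor, gave 2685 to 3474 with canertinib, 1992 to 2183 on fast food and 2339 to 2397 on chow. The part of these cell types in the changes of the matrix genes was not tested.

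**Figure D1:**
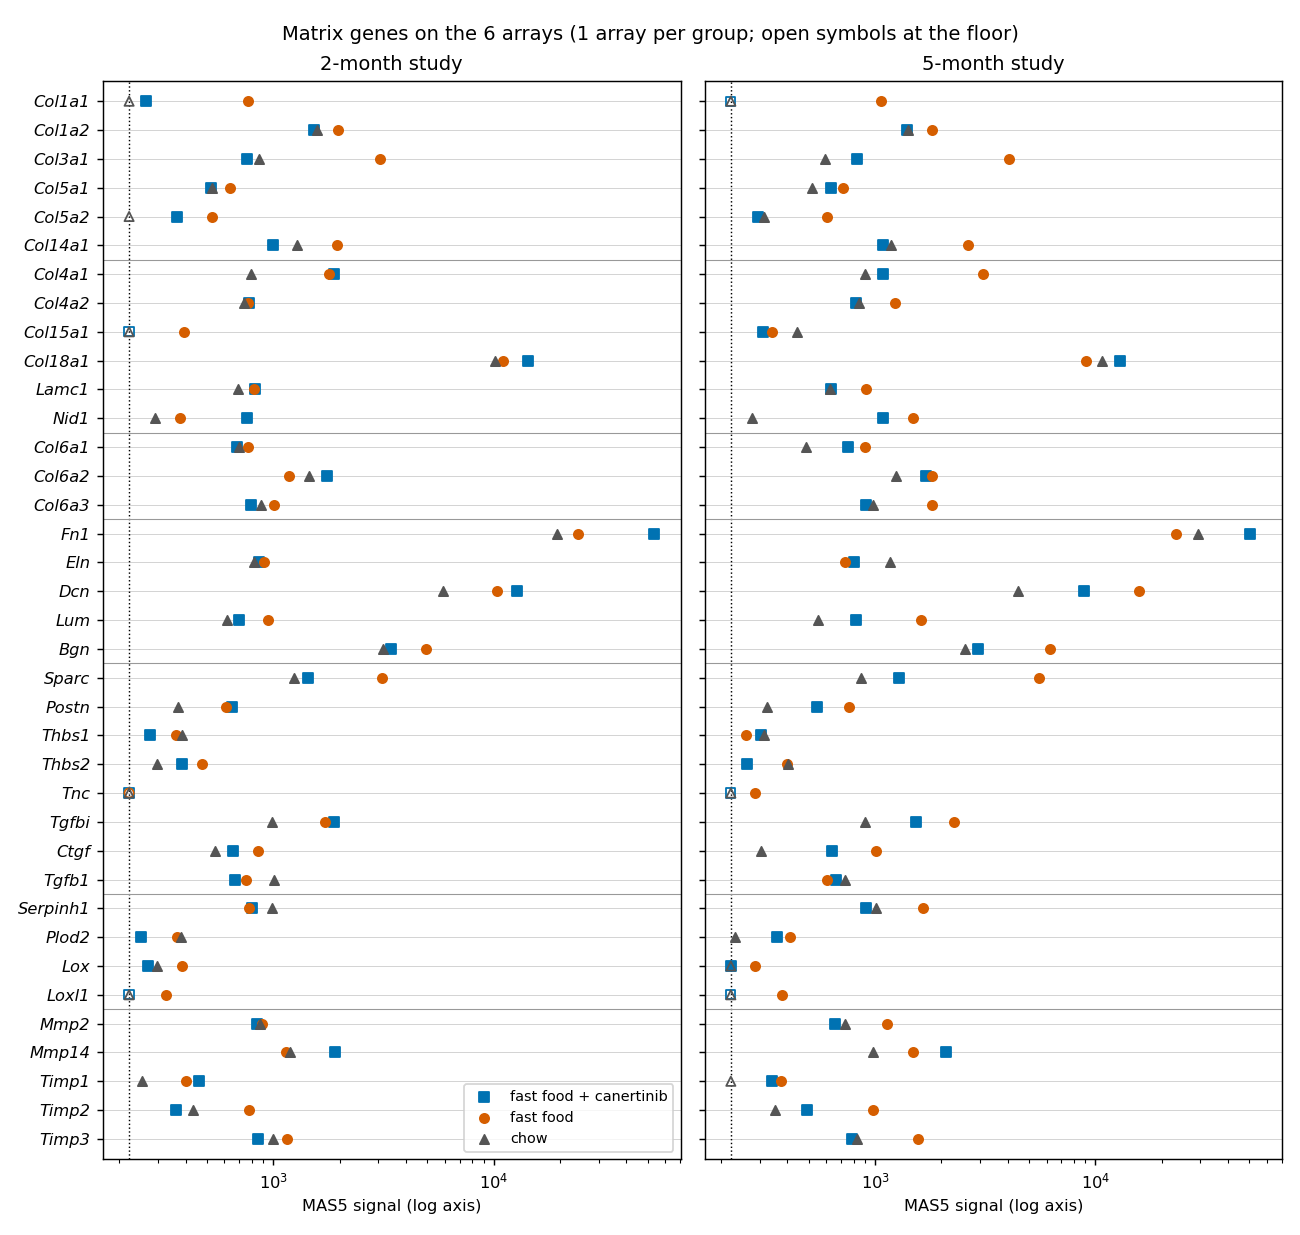
MAS5 signal (log axis) of the 37 measured matrix genes on the 2-month arrays (left) and the 5-month arrays (right), 1 point per array, with horizontal lines between the roles and a dotted line at the floor of 221.4. The fast-food array carries the highest signal for Col1a1, Col3a1, Col14a1, Sparc, Bgn, Lum and Timp2 in both studies, whereas Fn1 and Mmp14 are highest with canertinib.

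The comparison of fast-food diet with chow asks how the liver's matrix programme differed on the diet without the drug. At 5 months the fast-food group also had vehicle injections, which the labels do not name for chow. Matrix genes were more often higher than lower on the diet, and by more at 5 than at 2 months. Counting genes 2-fold or more apart, 5 of 37 were higher and 0 lower at 2 months, where 1.98% and 1.55% of all measured genes were, and 13 of 37 were higher and 0 lower at 5 months, where 2.72% and 1.83% of all genes were. Over the 37 the median was 0.39 on the log2 scale in the 2-month and 0.77 in the 5-month study, beside 0.00 over all genes in either. The 2-month and 5-month pairs share no array, and 25 of 37 genes were higher at both times and 2 lower at both, against 23.3% and 26.9% of all genes. Col1a1, Col3a1, Col4a1 and Sparc were at least 2-fold higher at both times, which 0.751% of all genes were, and 0 of 37 were that much lower at both, which 0.286% were.

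In a limma fit over the 6 arrays with terms for treatment and study, 0 of the 37 genes passed an adjusted p of 0.05 for diet against chow, as did 0.0286% of all genes in the higher and 0% in the lower direction. At an unadjusted p under 0.05 the fit held 18 of the 37 higher (48.6%) and 0 lower, against 5.43% and 4.43% of all genes. The lowest adjusted p was that of Col3a1, with a log2 change of 2.30 ± 0.26 (SE, n = 2 arrays per treatment, limma adjusted p = 0.088). With 2 residual degrees of freedom the fit recovered 13% of simulated 2-fold and 97% of simulated 4-fold diet effects. The simulation gave genes of similar signal the same spread, whereas real genes differ in spread, so these shares can overstate the fit's power here. Col1a1 and Sparc, with log2 estimates of 2.03 and 2.00, had limma adjusted p of 0.116 and 0.192. An effect that differs between the studies widens the error of the fit.

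The fibrillar collagens were higher as a group on the diet: all 6 were higher at both times on their brightest probe sets, with log2 medians of 0.93 early and 1.05 late. Col3a1, the chain of collagen III, which forms fine reticular fibres, had 3035 signal units on fast food and 863 on chow at 2 months, and 4072 on fast food and 590 on chow at 5 months. It was 3.52-fold and 6.91-fold higher. Col1a1, the main chain of the collagen I that makes up scar, had 767 on fast food and 45.3, below the floor, on chow at 2 months, and 1067 on fast food and 66.8, again below the floor, on chow at 5 months. The difference is thus at least 3.47-fold early and at least 4.82-fold late. Its partner chain Col1a2 was 1.25-fold and 1.29-fold higher on its brightest probe set, but 2.10-fold and at least 3.199-fold higher on a dimmer one.

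Col5a2, a chain of the collagen V that seeds fibril assembly, had 526 on fast food and 199.5, below the floor, on chow at 2 months, and 607 on fast food and 313.5 on chow at 5 months. This is at least 2.37-fold and 1.94-fold higher, whereas its partner Col5a1 was 1.21-fold and 1.38-fold higher. Col14a1, which binds to fibril surfaces, had 1941 on fast food and 1275.5 on chow at 2 months, and 2644 on fast food and 1187 on chow at 5 months. The diet difference was thus 1.52-fold early and 2.23-fold late.

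Among the basement membrane genes Col4a1 was at least 2-fold higher on the diet at both times and Nid1 at 5 months. Col4a1, a chain of the network-forming collagen IV, had 1792 on fast food and 794.0 on chow at 2 months, and 3074 on fast food and 902 on chow at 5 months, 2.26-fold and 3.41-fold higher. Its partner Col4a2, which is transcribed from the same promoter region in the opposite direction, was only 1.04-fold and 1.45-fold higher. Nid1, the linker nidogen that ties laminin to collagen IV, had 378 on fast food and 289 on chow at 2 months, and 1484 on fast food and 277 on chow at 5 months. Its diet difference was 1.31-fold early and 5.35-fold late. Lamc1, the laminin gamma chain, was 1.18-fold and 1.46-fold higher. Col18a1, the endostatin precursor, which hepatocytes also make, had log2 changes of 0.13 and -0.23.

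Col15a1, another endothelial basement membrane collagen, had 391 on fast food and 55.4, below the floor, on chow at 2 months, but 340.0 on fast food and 443 on chow at 5 months. The chow arrays themselves thus differed, and Col15a1 was the only one of the 37 at least 2-fold apart between chow at 5 months and chow at 2 months (1 of 37 higher and 0 lower, beside 1.28% and 1.32% of all genes). The 3 chains of collagen VI, a beaded filament near cells, had log2 medians of 0.13 early and 0.89 late, and none reached 2-fold.

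Leucine-rich proteoglycans, which coat collagen fibrils and limit their width, were higher at both times on their brightest probe sets, and by more at 5 months. Dcn (decorin, which also binds TGF-beta) had 10336 on fast food and 5899 on chow at 2 months, and 15851 on fast food and 4457 on chow at 5 months, 1.75-fold and 3.56-fold higher. Lum (lumican) had 943 on fast food and 618 on chow at 2 months, and 1614 on fast food and 550.1 on chow at 5 months, 1.53-fold and 2.93-fold higher. Bgn (biglycan) had 4915 on fast food and 3157 on chow at 2 months, and 6194 on fast food and 2552 on chow at 5 months, 1.56-fold and 2.43-fold higher. In all 3 the chow signal of the brightest set lay below the fast-food signal in either study. At 2 months a dimmer set went the other way for Dcn (265 on fast food, 282 on chow) and for Bgn (676 and 763). Fn1, fibronectin, of which hepatocytes secrete the plasma form, and Eln, the elastic fibre protein elastin, did not share this: their log2 changes were 0.31 and -0.33 for Fn1, and 0.16 and -0.68 for Eln. A dimmer set of Fn1 gave -0.73 and -0.52, the opposite sign at 2 months.

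The matricellular genes divided into those that were higher on the diet and those that were not. Sparc, a collagen-binding glycoprotein of matrix-producing cells, had 3102 on fast food and 1236 on chow at 2 months, and 5533 on fast food and 866 on chow at 5 months, 2.51-fold and 6.39-fold higher. Ctgf, the connective tissue growth factor now named Ccn2, had 851.0 on fast food and 546 on chow at 2 months, and 1007 on fast food and 302.5 on chow at 5 months, 1.56-fold and 3.33-fold higher. The chow signal of Ctgf was itself lower in the 5-month study. Tgfbi, a TGF-beta-induced adhesion protein, had 1715 on fast food and 983.5 on chow at 2 months, and 2277 on fast food and 896 on chow at 5 months, 1.74-fold and 2.54-fold higher. Postn, periostin, a collagen-associated protein of fibroblasts, had 609 on fast food and 369.6 on chow at 2 months, and 757.5 on fast food and 324 on chow at 5 months, 1.65-fold and 2.34-fold higher.

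Tgfb1, the ligand that drives matrix genes in stellate cells, had 752 on fast food and 1006 on chow at 2 months, and 603 on fast food and 730.2 on chow at 5 months. Its log2 changes were -0.42 and -0.28, and the limma estimate of -0.35 had a 95% interval of -0.89 to 0.20. A second probe set of Tgfb1, above the floor on all 6 arrays, had the opposite direction, 0.10 and 0.80, so the diet's direction on Tgfb1 is not settled here. Thbs1, thrombospondin 1, which can release TGF-beta from its latent complex, also had negative changes of -0.08 and -0.26, and on their brightest probe sets Tgfb1 and Thbs1 were the 2 genes lower at both times. Thbs2 was 1.61-fold higher at 2 months and level at 5 months, and Tnc, tenascin C, was above the floor only on the 5-month fast-food array, at 285.

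The folding and cross-linking genes had log2 medians of 0.16 early and 0.74 late, and none reached 2-fold on its brightest probe set. Lox, the lysyl oxidase that starts collagen cross-links, had 386 on fast food and 295 on chow at 2 months, and 285.0 on fast food and 186.8, below the floor, on chow at 5 months. This amounts to 1.31-fold and at least 1.29-fold higher. Loxl1, a related oxidase, was above the floor only on the fast-food arrays, at 325 and 377, which is at least 1.47-fold early and at least 1.70-fold late. Plod2, which hydroxylates lysines for stable cross-links, had log2 changes of -0.06 and 0.84.

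Of the remodelling genes, the inhibitors differed more from chow than the proteases did on their brightest probe sets. Timp2, an inhibitor that also takes part in activating Mmp2, had 774 on fast food and 433 on chow at 2 months, and 980.0 on fast food and 351.5 on chow at 5 months, 1.79-fold and 2.79-fold higher. Timp1, the inhibitor most often followed in liver fibrosis, had 403 on fast food and 252 on chow at 2 months, and 374 on fast food and 209.8, below the floor, on chow at 5 months, 1.60-fold and at least 1.69-fold higher. Timp3, a matrix-bound inhibitor, was 1.15-fold and 1.89-fold higher on its brightest probe set. A dimmer set above the floor on all 6 arrays had the opposite direction (-0.13 and -0.27), and another gave 0.01 and 0.62. Mmp2, a gelatinase of stellate cells, had 884 on fast food and 872 on chow at 2 months, and 1132 on fast food and 734 on chow at 5 months, 1.01-fold and 1.54-fold higher. Mmp14, the membrane protease that activates Mmp2, had log2 changes of -0.05 and 0.61. Mmp13, the main interstitial collagenase of the mouse, stayed below the floor on all 6 arrays.

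**Figure D2:**
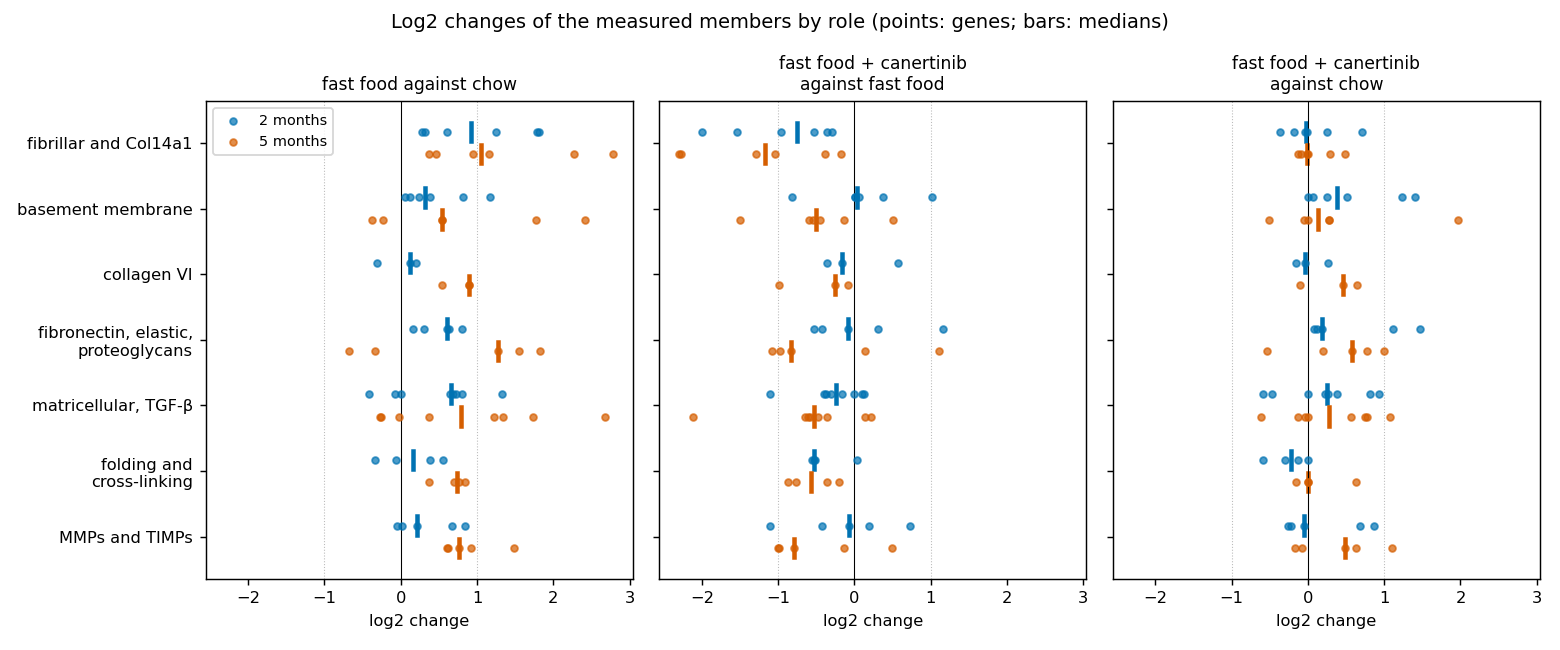
Log2 change of each measured matrix gene (points) and the median of its role (bars) for fast food against chow, fast food with canertinib against fast food, and fast food with canertinib against chow, at 2 months (blue) and 5 months (orange). The fibrillar collagens lie wholly to the right of 0 in the first panel, wholly to the left in the second, and have medians of -0.03 and -0.01 in the third.

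The comparison of canertinib with diet against diet alone asks how blocking the ERBB receptors altered these genes while the diet continued. It uses the same fast-food arrays as the comparison with chow, so the values of both are given side by side and are not independent. The fibrillar collagen genes, Sparc and Timp2 were lower with the drug, Fn1 was higher, and more of the genes were lower at 5 than at 2 months. By 2-fold or more, 4 of 37 were lower and 2 higher at 2 months, where 3.26% and 3.55% of all genes were, and 7 were lower and 1 higher at 5 months, where 2.73% and 2.19% of all genes were. The log2 medians were -0.29 early and -0.58 late, beside 0.00 for all genes.

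At both times 20 of 37 genes were lower and 3 were higher (Col18a1, Fn1 and Mmp14), against 27% and 25.9% of all genes. Col1a1, Col3a1 and Sparc were at least 2-fold lower at both times, as were 0.865% of all genes, and Fn1 was at least 2-fold higher at both, as were 0.951%. In the limma fit 1 of 37 genes, Col3a1, passed an adjusted p of 0.05 in the lower direction and 0 in the higher, beside 0.307% and 0.407% of all genes. At an unadjusted p under 0.05, 13 of 37 (35.1%) were lower and 3 (8.11%) higher, against 7.54% and 7.24% of all genes.

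**Figure D3:**
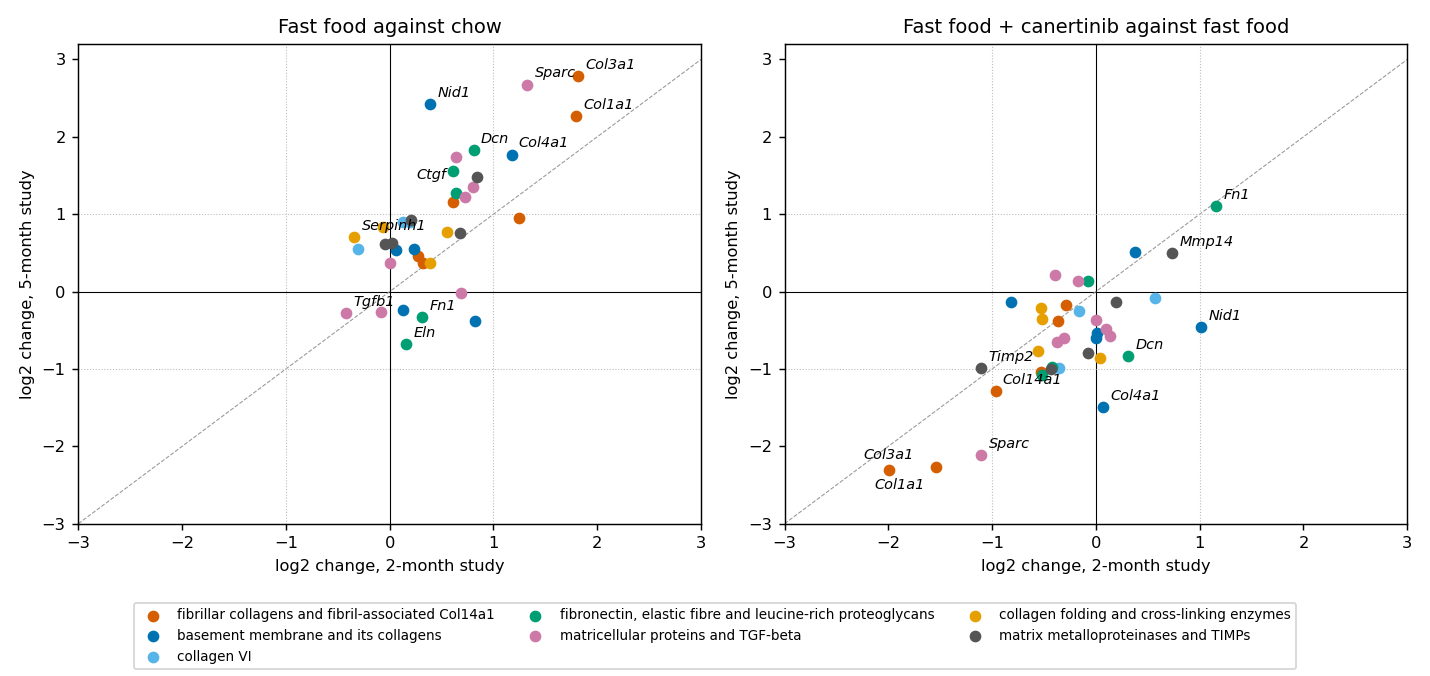
Log2 change in the 2-month study (horizontal) against that in the 5-month study (vertical) for the 37 measured matrix genes, coloured by role, with the line of equal change dashed; left, fast food against chow, right, fast food with canertinib against fast food. The diet changes lie mostly above the dashed line, and with the drug Col3a1, Col1a1 and Sparc lie farthest toward the lower left and Fn1 alone beyond 1 on both axes.

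Col3a1 fell with the drug. It had 761 signal units with canertinib against 3035 on fast food at 2 months, and 824 with canertinib against 4072 on fast food at 5 months, 3.99-fold and 4.94-fold lower. The limma change was -2.15 ± 0.26 (SE, n = 2 arrays per treatment, adjusted p = 0.044), and it failed the threshold under 4 of 8 alternative settings, with adjusted p between 0.0357 and 0.0977 over the main setting and all of them. Against chow its log2 change was -0.18 and 0.48.

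Col1a1 had 263 with canertinib against 767 on fast food at 2 months, and 33.3, below the floor, with canertinib against 1067 on fast food at 5 months. It was 2.91-fold and at least 4.82-fold lower, and the limma change of -1.91 ± 0.25 had an adjusted p of 0.054. Col14a1 had 993 with canertinib against 1941 on fast food at 2 months, and 1081 with canertinib against 2644 on fast food at 5 months, 1.95-fold and 2.45-fold lower (limma -1.13 ± 0.18, adjusted p = 0.076). Both canertinib signals of Col14a1 were below the chow signal of the same study, by 1.28-fold and 1.10-fold. With probe sets ending in _s_at, _x_at or _a_at left out, Col14a1 changed sign at 2 months, to -0.06 for the diet and 0.11 for the drug, and came to 0.34 and -0.63 at 5 months.

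Col5a2 had 363.5 with canertinib against 526 on fast food at 2 months, and 294.0 with canertinib against 607 on fast food at 5 months, 1.45-fold and 2.06-fold lower. Col1a2 (1.28-fold and 1.31-fold) and Col5a1 (1.22-fold and 1.13-fold) were lower by less. On their brightest probe sets the 6 fibrillar genes were all lower with the drug in both studies, with medians of -0.75 and -1.17. After flooring, 0 of 6 lay 2-fold or more from chow, but some of these differences are bounds. At 2 months Col1a1 was at least 1.19-fold above chow (263 against 45.3, below the floor) and Col5a2 at least 1.64-fold. At 5 months both arrays lay below the floor for Col1a1, so its distance from chow is not known. The dimmer set of Col1a2 was also lower with the drug (-0.89 and -0.42), but at 5 months it lay at least 2.40-fold above chow.

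Sparc had 1444 with canertinib against 3102 on fast food at 2 months, and 1278 with canertinib against 5533 on fast food at 5 months, 2.15-fold and 4.33-fold lower. Its limma change was -1.61 ± 0.32 (adjusted p = 0.123). Timp2 had 360.0 with canertinib against 774 on fast food at 2 months, and 493 with canertinib against 980.0 on fast food at 5 months, 2.15-fold and 1.99-fold lower. Bgn had 3422 with canertinib against 4915 on fast food at 2 months, and 2925 with canertinib against 6194 on fast food at 5 months, 1.44-fold and 2.12-fold lower. On their brightest probe sets these 3 genes were all within 2-fold of chow under the drug. Single dimmer sets lay farther off. At 2 months a Bgn set was at least 3.45-fold below chow. At 5 months a Timp2 set was at least 2.13-fold below chow and a Sparc set 2.04-fold above it. Lum, Timp3 and Col6a3 came just short of 2-fold lower at 5 months on their brightest probe sets, 1.97-fold, 1.994-fold and 1.99-fold. Dimmer sets of Timp3 gave log2 changes of only -0.44 and -0.47 there.

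Fn1, whose protein binds collagens, was higher with the drug. It had 53700 with canertinib against 24058 on fast food at 2 months, and 50161 with canertinib against 23268 on fast food at 5 months, while chow had 19392 and 29273. The drug difference was 2.23-fold and 2.16-fold higher, and both canertinib signals lay above all 4 others. The limma change was 1.13 ± 0.28 (95% interval 0.44 to 1.83, adjusted p = 0.169). Under quantile normalization the log2 changes were 0.80 and 0.81, under 2-fold.

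Mmp14 had 1909 with canertinib against 1146 on fast food at 2 months, and 2100 with canertinib against 1492.5 on fast food at 5 months, 1.67-fold and 1.41-fold higher, and Col18a1 was 1.30-fold and 1.43-fold higher. The hepatocyte marker sum moved in the same direction as these 3 genes, at 424410 with canertinib against 334420 on fast food at 2 months, and 328590 with canertinib against 241680 on fast food at 5 months, and its part was not tested.

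In 13 of 37 genes the drug change had opposite signs in the 2 studies, as in 34.2% of all genes, and in Nid1, Col4a1 and Dcn the 2 changes also lay at least 1 log2 unit apart. Nid1 had 763 with canertinib against 378 on fast food at 2 months, and 1082.5 with canertinib against 1484 on fast food at 5 months, with log2 changes of 1.01 and -0.46. Col4a1 had 1875.5 with canertinib against 1792 on fast food at 2 months, and 1090 with canertinib against 3074 on fast food at 5 months, with changes of 0.07 and -1.50. Dcn had 12831 with canertinib against 10336 on fast food at 2 months, and 8893.5 with canertinib against 15851 on fast food at 5 months, with changes of 0.31 and -0.83. The difference between the studies was not tested for these genes, since each effect rests on 1 pair of arrays.

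On their brightest probe sets Tgfbi and Postn were near the fast-food level at 2 months and lower at 5 months. Tgfbi had 1880 with canertinib against 1715 on fast food at 2 months, and 1527.5 with canertinib against 2277 on fast food at 5 months, with log2 changes of 0.13 and -0.58. Postn had 650.4 with canertinib against 609 on fast food at 2 months, and 542 with canertinib against 757.5 on fast food at 5 months, with changes of 0.09 and -0.48. Both stayed above chow on these sets in either study, with log2 changes against chow of 0.93 and 0.77 for Tgfbi and 0.82 and 0.74 for Postn. In each study 3 of the 4 sets of Tgfbi lay above chow. The exceptions were a dimmer set at -0.51 at 2 months and a different one at -0.53 at 5 months. Those sets gave drug changes of -0.53 and -0.56 at 2 months. Ctgf had 656 with canertinib against 851.0 on fast food at 2 months, and 640.3 with canertinib against 1007 on fast food at 5 months, with changes of -0.38 and -0.65. Tgfb1 had 669.5 with canertinib against 752 on fast food at 2 months, and 665 with canertinib against 603 on fast food at 5 months, with changes of -0.17 and 0.14. The limma interval for the drug effect on Tgfb1 ran from -0.56 to 0.53.

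Timp1 had 460 with canertinib against 403 on fast food at 2 months, and 342 with canertinib against 374 on fast food at 5 months, changes of 0.19 and -0.13. Mmp2 had 840.5 with canertinib against 884 on fast food at 2 months, and 655 with canertinib against 1132 on fast food at 5 months, changes of -0.07 and -0.79. The inhibitors thus differed among themselves on their brightest probe sets. Timp2 and Timp3 were lower with the drug at both times and Timp1 was within 1.14-fold of the fast-food signal. A dimmer set of Timp3 was level with the drug at 2 months (0.02) and lower at 5 months (-0.44), and another gave -0.18 and -0.47. Lox had 270.2 with canertinib against 386 on fast food at 2 months, and 222 with canertinib against 285.0 on fast food at 5 months, and Loxl1 lay below the floor with the drug in both studies.

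Against chow, the genes 2-fold or more away in liver with diet and drug were basement membrane, fibronectin, proteoglycan, matricellular or protease genes. All of them were higher. At 2 months 4 of 37 (Col4a1, Nid1, Fn1 and Dcn, 10.8%) were higher and 0 lower, where 3.8% and 2.74% of all genes were. At 5 months 3 (Nid1, Ctgf and Mmp14, 8.11%) were higher and 0 lower, where 2.82% and 2.72% of all genes were. Changes that are only bounds were counted at their floored size. The log2 medians were 0.08 and 0.20. Nid1 was 2.64-fold and 3.90-fold above chow, and Dcn 2.17-fold and, just under the threshold, 1.995-fold. The limma fit called 0 of 37 genes for this contrast, beside 0.558% higher and 0.207% lower of all genes. At an unadjusted p under 0.05 it held 7 higher (Nid1, Fn1, Dcn, Postn, Tgfbi, Mmp14 and Timp1, 18.9%) and 0 lower, against 7.89% and 7.71% of all genes.

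Several genes were read by more than 1 probe set, and these did not always give the same size. Both probe sets of Col1a1 were higher on the diet and lower with the drug in each study, but the dimmer set gave diet changes of 0.49 and 0.83 and drug changes of -0.47 and -0.84. Both probe sets of Col3a1 had the same direction throughout, the dimmer with 0.87 and 1.19 for the diet and -1.18 and -1.19 for the drug. For Fn1 the dimmer set gave drug changes of 1.99 and 1.24. On the diet Col4a1 was 2-fold or more above chow on both sets at both times, but its drug change at 5 months was -1.50 on the brighter and -0.27 on the dimmer set. With all probe sets of a gene averaged, some calls of 2-fold were lost: Sparc at 2 months (0.72 for the diet and -0.57 for the drug), Col14a1 at 5 months (0.50 and -0.64), Timp2 (0.56 for the diet at 5 months and -0.50 for the drug at 2 months), Nid1 (0.97 for the diet at 5 months and 0.34 for the drug at 2 months), Col5a2 (0.62 for the diet at 2 months and -0.52 for the drug at 5 months), Bgn for the diet at 5 months (0.98) and Col4a1 for the drug at 5 months (-0.88).

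Serpinh1, the collagen chaperone Hsp47, differed most between its sets. The brightest had 798.5 with canertinib, 779.0 on fast food and 987 on chow at 2 months, and 906 with canertinib, 1649 on fast food and 1012 on chow at 5 months. The other had 220.0, below the floor, with canertinib, 1293 on fast food and 552 on chow at 2 months, and 392 with canertinib, 1389 on fast food and 281 on chow at 5 months. The second set thus gave diet changes of 1.23 and 2.30 and drug changes of -2.55 or below and -1.82, against -0.34 and 0.70 and 0.04 and -0.86 on the brightest. The second set of Tgfb1 gave drug changes of -0.03 and -0.73. For Timp2, 4 of 5 sets were lower with the drug in each study.

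**Figure D4:**
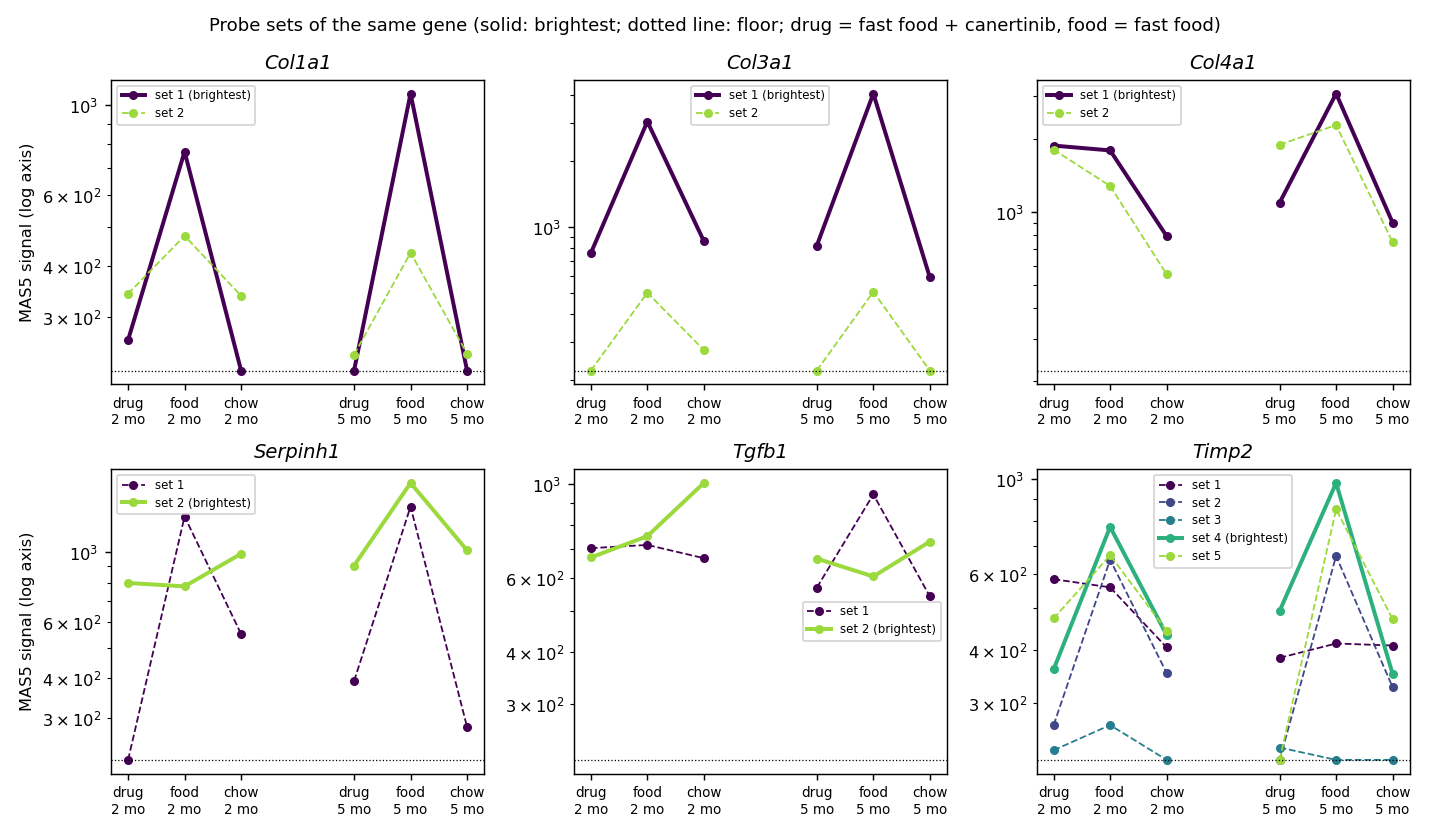
MAS5 signal (log axis) of every probe set above the floor for Col1a1, Col3a1, Col4a1, Serpinh1, Tgfb1 and Timp2 on the 6 arrays, in the order canertinib, fast food and chow within each study, with the brightest set solid. The sets of Col1a1 and Col3a1 peak together on the fast-food arrays, whereas those of Serpinh1 at 2 months and Tgfb1 at 5 months do not run in parallel.

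Upstream sequences are shown for genes that went different ways with the drug: Col3a1, Sparc and Timp2, lower in both studies, and Nid1 and Mmp14, which were not. Each is the 250 bases before the RefSeq gene start in build GRCm38.p6, 5′ to 3′ on the gene's strand. Capitals mark matches, on either strand, to 6 short motifs: the TATA box as TATAAA, the CCAAT box as CCAAT, the GC box as GGGCGG, a SMAD-binding core as CAGAC, the AP-1 site as TGANTCA and the TEAD site as GGAATG.
Col3a1, chr1:45311288-45311537, plus strand: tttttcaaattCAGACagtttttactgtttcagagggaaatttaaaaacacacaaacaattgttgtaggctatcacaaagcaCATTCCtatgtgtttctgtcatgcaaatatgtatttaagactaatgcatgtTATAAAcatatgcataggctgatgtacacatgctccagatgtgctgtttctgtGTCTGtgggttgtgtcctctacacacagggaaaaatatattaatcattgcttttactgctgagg
Sparc, chr11:55420081-55420330, minus strand: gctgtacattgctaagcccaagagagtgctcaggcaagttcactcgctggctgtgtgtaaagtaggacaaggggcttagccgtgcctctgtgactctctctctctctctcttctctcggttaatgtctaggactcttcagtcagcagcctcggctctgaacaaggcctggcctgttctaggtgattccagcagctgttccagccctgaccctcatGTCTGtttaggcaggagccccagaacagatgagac
Timp2, chr11:118355412-118355661, minus strand: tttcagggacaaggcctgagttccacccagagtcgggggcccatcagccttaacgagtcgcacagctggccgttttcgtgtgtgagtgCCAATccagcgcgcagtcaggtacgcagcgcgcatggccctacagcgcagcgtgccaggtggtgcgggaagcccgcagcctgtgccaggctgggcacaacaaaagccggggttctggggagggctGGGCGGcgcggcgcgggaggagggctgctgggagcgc
Nid1, chr13:13437352-13437601, plus strand: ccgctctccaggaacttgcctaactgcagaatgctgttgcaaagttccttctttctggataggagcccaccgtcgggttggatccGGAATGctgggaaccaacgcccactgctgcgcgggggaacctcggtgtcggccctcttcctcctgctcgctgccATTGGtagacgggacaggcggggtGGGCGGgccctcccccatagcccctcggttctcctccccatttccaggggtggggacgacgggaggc
Mmp14, chr14:54431348-54431597, plus strand: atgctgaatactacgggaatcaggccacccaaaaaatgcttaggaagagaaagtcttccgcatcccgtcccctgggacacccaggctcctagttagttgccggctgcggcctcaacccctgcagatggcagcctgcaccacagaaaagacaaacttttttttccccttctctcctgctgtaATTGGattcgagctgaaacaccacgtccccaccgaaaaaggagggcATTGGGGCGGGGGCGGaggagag
The Col3a1 window held a TATA box match 117 bases before the start, SMAD cores at 239 and 64, and a TEAD match at 168, whereas that of Sparc held only a SMAD core at 35. The other 3 windows, all of higher GC content (55.2% to 68.0%, against 35.2% in Col3a1 and 54.0% in Sparc), each held CCAAT and GC boxes, and in Mmp14 the last of these matches overlap. Nid1 also held a TEAD match, at 165. The AP-1 letters were in none of the 5. Of all 32536 windows of this length, 12.3% held the TATA box, 33.8% the CCAAT box, 33.0% the GC box, 42.2% the SMAD core, 6.73% the AP-1 site and 12.6% the TEAD site. Among the 26 of the 42 matrix genes with an entry, 5 held the TATA box, 10 the CCAAT box, 17 the GC box, 14 the SMAD core, 2 the AP-1 site and 5 the TEAD site. A match describes letters only and says nothing of binding.

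Other genes of the matrix, 79 measured of 98 on lists drawn up by role (further collagens, basement membrane and elastic fibre, glycoproteins, collagen processing, proteases, and TGF-beta and matrix receptors), were counted in the same way. On the diet 3 (3.80%) were higher by 2-fold or more and 1 (1.27%) lower at 2 months, and 11 (13.9%) higher and 1 (1.27%) lower at 5 months, beside 1.98% and 1.55%, and 2.72% and 1.83%, of all genes. With the drug against diet, 1 (1.27%) was higher and 7 (8.86%) lower at 2 months, and 1 (1.27%) higher and 10 (12.7%) lower at 5 months, beside 3.55% and 3.26%, and 2.19% and 2.73%, of all genes. Their median log2 changes were 0.00 and 0.11 for the diet, and 0.02 and -0.13 for the drug. The limma fit called 0 of them in either contrast. Among the 16 measured basement membrane and elastic fibre genes, 15 were lower in any amount with the drug at 5 months (median -0.53), where 46.5% of all genes were, and 8 at 2 months (median -0.07), where 46.6% were.

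In either comparison, 4 of these genes were at least 2-fold different in the same direction at both times. Mfap2, a microfibril protein of elastic fibres, was above the floor only on the fast-food arrays, at 476 and 879, or at least 2.15-fold and at least 3.97-fold above both chow and canertinib. Fbln5, fibulin 5, which helps assemble elastic fibres, had 249.6 with canertinib, 551.5 on fast food and 243 on chow at 2 months, and 217, below the floor, with canertinib, 539.5 on fast food and 275 on chow at 5 months, so that it was 2.21-fold and at least 2.44-fold lower with the drug. Cyr61, the matricellular protein now named Ccn1, had 194, below the floor, with canertinib, 763 on fast food and 527 on chow at 2 months, and 243 with canertinib, 516 on fast food and 871 on chow at 5 months. The canertinib signal of Cyr61 was the lowest of the 3 in each study, at least 3.44-fold and 2.12-fold below fast food. Col12a1, a fibril-associated collagen like Col14a1, had the opposite pattern to the fibrillar chains, with 427 with canertinib, 232 on fast food and 942 on chow at 2 months, and 796 with canertinib, 199, below the floor, on fast food and 621 on chow at 5 months. It was 4.07-fold and at least 2.80-fold lower on the diet.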

How the data were processed

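Liver RNA of 6 groups, 1 array each, was measured on Affymetrix mouse genome arrays. The deposited intensity values are MAS5 signals per the submitters' processing notes, with no version stated there, and from the values the authors had scaled each array to a mean of 500 without the highest and lowest 2% of probe sets. Of 45101 probe sets, 34945 with 1 gene symbol in the platform annotation were used; 932 had several symbols, 9211 were not listed and 64 were controls. Each gene took its probe set of highest mean signal. Signals were raised to 221.4 (the 50th percentile) and log2 transformed, and 13988 genes were above that floor on at least 1 array.

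The matrix genes, the other lists and the rule for named genes were chosen with earlier results of these data known. Genes named with all array values were those 2-fold different from chow or with the drug at either time, with Tgfb1, Timp1, Mmp2, Mmp13 and Lox always, and among other matrix genes those 2-fold different the same way at both times. Single arrays were compared by size only. The limma fit used all 6 arrays, with treatment and study as terms and a variance trend (2 residual degrees of freedom, median prior 3.49), and Benjamini-Hochberg adjustment over 13988 genes. Its p-values measure the spread between pooled arrays of 2 studies. Simulated diet effects of known size, in 5 runs for each fold over 13988 genes, were used to test the fit. Genes of similar signal were given the same spread in these runs. Array signals have no read depth, and the number of arrays limits precision. Alternatives were quantile normalization, median centring, floors at the 40th and 60th percentile, the mean over probe sets, probe sets ending in _s_at, _x_at or _a_at left out, thresholds of 1.5-fold and 3-fold, and for limma no study term and no trend. Upstream windows came from the RefSeq table (GRCm38.p6), which held 26 of the 42 genes. Tools were limma 3.58.1 in R 4.3.3, and pandas 2.3.3, NumPy 2.4.6, SciPy 1.17.1 and matplotlib 3.10.9 in Python 3.11.15.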

Additional observations from a re-analysis of the deposited data

Results flagged for a closer look

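Opposite signs in the 2 studies were seen in 13 of 37 matrix genes for the drug and in 9 of 37 for the diet, beside 34.2% and 36.9% of all genes. In 4 of these cases the 2 changes lay at least 1 log2 unit apart with all arrays compared above the floor, and they are given here (Col15a1 on the diet had such a gap with an array at the floor). The difference was not tested, since each effect is 1 pair of arrays. Nid1 was higher with canertinib than on fast food at 2 months and lower at 5 months (log2 1.01 and -0.46), Col4a1 was level and then lower (0.07 and -1.50), and Dcn was higher and then lower (0.31 and -0.83). Their other informative probe sets gave drug changes of 0.50 and -0.27 for Col4a1 and of 0.20 and -0.58 for Dcn. Serpinh1 was lower than chow on the 2-month and higher on the 5-month fast-food array (-0.34 and 0.70), whereas its second probe set was higher at both (1.23 and 2.30). Dosing route and duration differed together with study length, and their parts cannot be told apart.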

How the results depend on the processing

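The limma fit sets the treatments against each other within each study through its study term, and replicates could not be paired further with 1 array per group. The medians of the 37 genes kept their sign under all 7 alternatives that apply to single-array comparisons: 0.27 to 0.49 and 0.56 to 0.84 for diet against chow at 2 and 5 months, and -0.40 to -0.17 and -0.60 to -0.42 for drug with diet against diet. Among changes of single named genes, 1274 of 1320 kept their side of 2-fold, 15 moved past it and 29 under it. Most of the 1320 were under 2-fold in the main setting, so the 29 fall on the far smaller number that began at 2-fold or more. The sign changed in 35 of 1320, none of them 2-fold or more in the main setting. In 2 of these the alternative passed 2-fold: Serpinh1, drug against diet at 2 months, came to -1.26 with the mean over probe sets (0.04 in the main setting), and Col1a2, drug against chow at 5 months, to 1.26 without the suffixed probe sets (-0.01). The mean over probe sets also gave 0.44 for Serpinh1 on the diet at 2 months and 0.26 for Tgfb1 on the diet at 5 months. At a 1.5-fold threshold 16 and 23 genes were higher on the diet at 2 and 5 months (5 and 13 at 2-fold), beside 7.51% and 8.45% of all genes. With the drug against diet, 6 and 18 were lower at 2 and 5 months (4 and 7 at 2-fold), beside 10.6% and 9.26%. With the drug against chow, 9 and 10 were higher (4 and 3), beside 10.6% and 8.92%. At 3-fold, 2 and 7 were higher on the diet, beside 0.458% and 0.765%. At that threshold 1 (2 months) and 3 (5 months) were lower with the drug against diet, beside 0.829% and 0.543%. Against chow 0 and 1 were then higher, beside 1.05% and 0.779%. With the mean over probe sets, where sets at the floor count as no change, the diet count at 2 months was 3. The counts above chow were then 2 and 1, and with quantile normalization the count above chow at 2 months was 2. The limma count for drug against diet was 2 (Col1a1 and Col3a1) with quantile normalization, median centring, the 60th percentile floor or no study term, and 0 with the 40th percentile floor, the mean over probe sets, the suffixed probe sets left out, or no trend. The causes were not tested. Leaving out genes with a mean signal under the floor, an alternative added after seeing the data, left 35 of the 37 and the counts 5, 13, 4, 7, 4 and 3. Signals near the floor, as for Col1a1, Lox and Loxl1, give bounds only.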

Other observations

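A few values lie outside the comparisons above. The chow arrays of the 2 studies, which differ in length and not in diet or drug, had a median log2 difference of -0.16 over the 37 matrix genes for 5 against 2 months, with 10 higher and 24 lower, beside 0.00 over all genes. Among probe sets other than the brightest, a dimmer set of Mmp2 was at the floor on the 2-month arrays and gave 1.11 for the diet and -1.11 for the drug at 5 months. A dimmer set of Tgfbi was lower with the drug at 5 months by far more than the brightest, with -2.15 against -0.58. These sets were chosen after their values were seen.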
